A study of Homo sapiens with 12 samples.

Results

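Genes used as stromal, mesenchymal or myeloid markers were followed in MCF-12A cells, a non-tumorigenic human breast epithelial line, after TGFbeta1 or vehicle. The 8 genes are PDPN, FAP, DCN, AXL, NT5E, THY1, CSF1R and ROS1, and 7 of these 8 genes had rows, among 13588 genes listed in all. THY1 had none and was not analysed here. The genes were chosen with the TGFbeta1 against control values of these same libraries in view, so their values are given as a description, without a p-value. Of the 7 products 6 sit at the cell surface, while decorin, the product of DCN, is secreted into the matrix, and for it the name surface marker is inexact.

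RNA-seq was made from 12 libraries, 6 of cells given TGFbeta1 and 6 of control cells given vehicle. All 12 came from the unmodified MCF-12A line grown in culture, so stromal cells were not part of the design. The sources used here state neither the dose of TGFbeta1 nor the length of treatment. They also do not say whether replicates were separate cultures, so p-values measure the spread between these libraries, which may be technical. The libraries came in 2 tables. One, called the first set, holds TGFbeta1 1 to 3 and control 1 to 3, and the other, the second set, holds TGFbeta1 4 to 6 and control 4 to 6. Each comparison was made within a set. Levels are FPKM, fragments scaled by transcript length and by mapped fragments of the library, summed over the transcripts of a gene.

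Epithelial cells exposed to TGFbeta1 can take on features of mesenchymal cells, in which junctions loosen and the cells make matrix and move. Several proteins that mark fibroblasts and mesenchymal stromal cells in tissue can appear on such cells too. Podoplanin, fibroblast activation protein, CD73 and Thy-1 are proteins by which stromal cells are commonly recognised, and AXL is a receptor often studied in cells that have lost epithelial features. CSF1R is best known from macrophages and ROS1 from rearranged forms in lung cancer, so neither is a classical fibroblast marker.

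The summed FPKM of a library ran from 291802 to 318270 in the first set and from 338968 to 358433 in the other, and read counts were not given. Of 6 genes known to respond to TGFbeta1 (SMAD7, ITGB6, TGFBI, FN1, PMEPA1 and SKIL), all 6 rose in the first set, with a median log2 change of 2.598. None of the 6 passed the test in the second set, where the median was -0.29, and their summed level was 280 to 392 FPKM in libraries labelled TGFbeta1 and 613 to 658 FPKM in control libraries. Without TGFbeta1 6 the fibronectin gene FN1 passed there downwards, at a log2 change of -0.93 (adjusted p = 0.0267). ITGB6, an integrin chain gene, had 2.86, 1.60 and 3.09 FPKM in the second-set libraries labelled TGFbeta1, against 2.71, 1.73 and 2.91 FPKM in the controls. By these 6 genes the second-set libraries therefore did not show the response that their label names, and directions drawn from that set are of libraries labelled TGFbeta1. Each result below is given for each set separately.

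In the first set 6 of the 7 marker genes were higher with TGFbeta1 and passed the test, an adjusted p under 0.05, where 9.00% of 10454 genes tested passed it upwards and 11.9% downwards. These were PDPN, FAP, ROS1, NT5E, DCN and CSF1R, while AXL did not pass. DCN reached the minimum of 1 FPKM for the test only through its TGFbeta1 libraries, which already favoured a rise. The median log2 change of the 7 was 1.42, beside -0.05 over all genes tested. In the second set none passed upwards and 2 of 6 tested, DCN and ROS1, passed downwards, where 0.170% and 0.151% of 10579 genes did so. The median of the 6 was -0.54, beside -0.0003 over all genes. All 7 were apart in the first set, 6 with every TGFbeta1 library above every control library and AXL with every TGFbeta1 library below, against 18.2% and 25.1% of all genes tested. Within the second set 4 were apart, all lower (FAP, DCN, CSF1R and ROS1), and 3 overlapped, where 9.71% of genes tested were apart upwards and 9.62% downwards. Because the genes were chosen on this contrast, nothing is read from these shares, nor from which marker genes passed. Among all genes of the first set 941 rose and 1245 fell, a split that became 1164 and 855 when each library was scaled to the same sum.

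**Figure D1:**
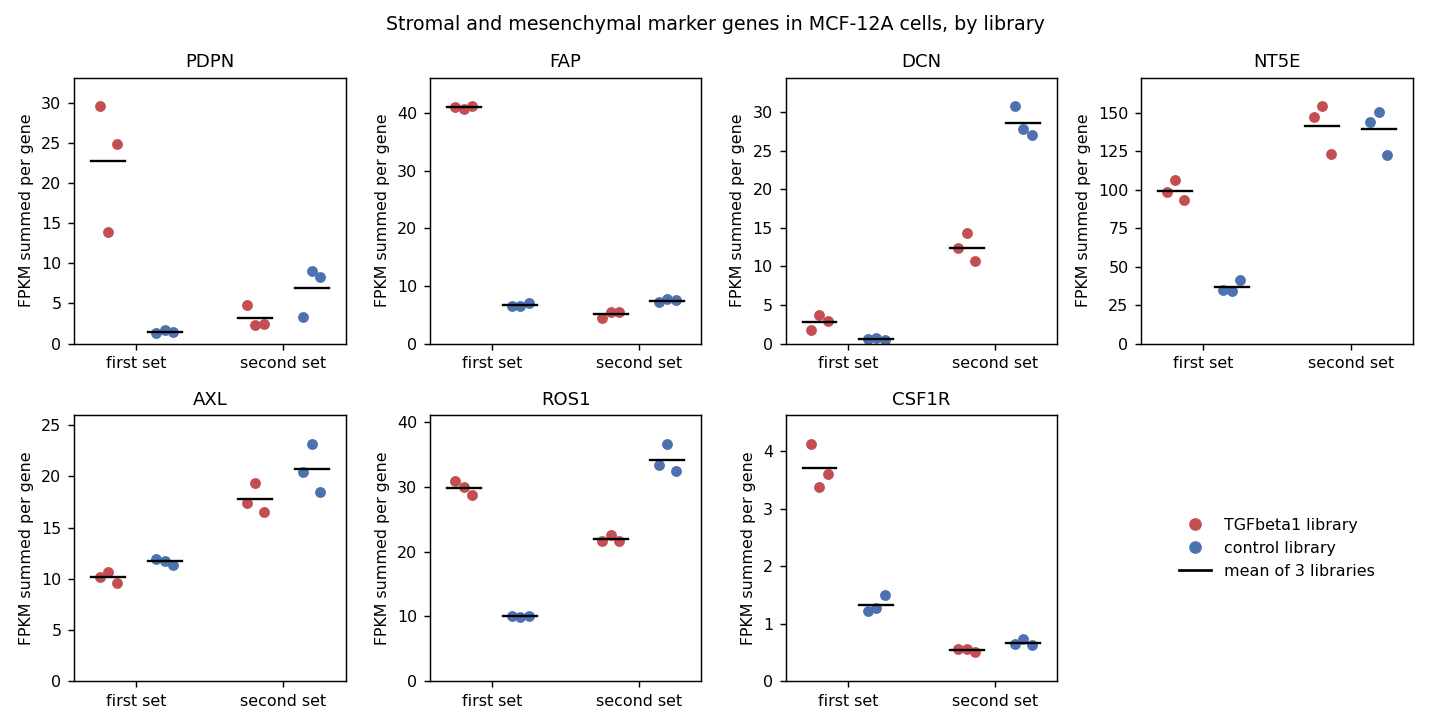
Summed FPKM of each of the 7 genes (y axis, linear, from 0) in each of the 12 libraries, with TGFbeta1 libraries left of control libraries within a set and a bar at the mean of 3 libraries. FAP sits near 41 FPKM in the 3 first-set TGFbeta1 libraries and under 8 FPKM in the other 9, while DCN is highest in the second-set controls, at 27.1 to 30.8 FPKM.

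**Figure D2:**
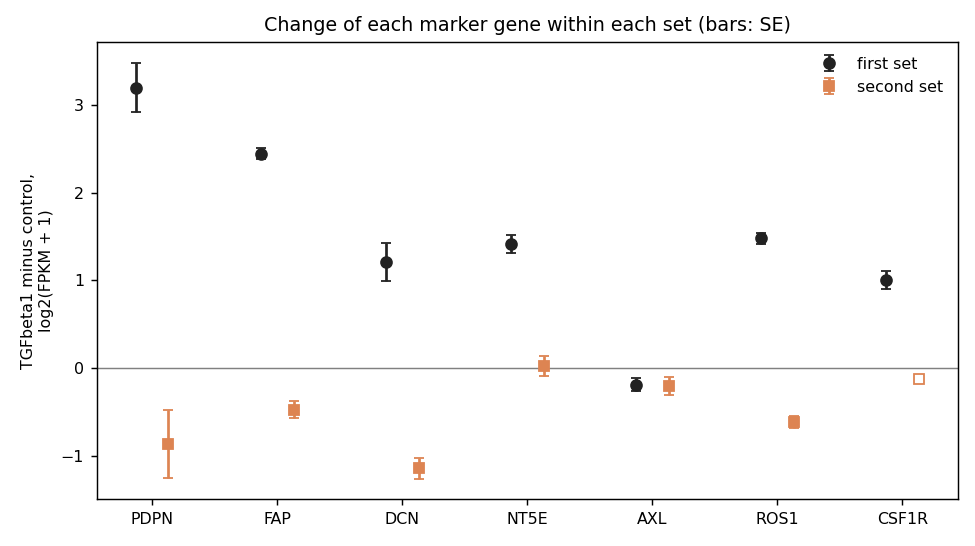
Difference between TGFbeta1 and control on the log2(FPKM + 1) scale (y axis) for each gene in the first set (circles) and the second set (squares), with SE as bars. The open square is CSF1R in the second set, which was under the minimum level and has no SE. PDPN and FAP differ by 3.20 and 2.44 in the first set and by -0.86 and -0.47 in the second.

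PDPN (ENSG00000162493, hg19 chr1:13909960-13944452, plus strand) codes for podoplanin, a mucin-like membrane glycoprotein of lymphatic endothelium, lung alveolar cells and many fibroblasts, whose tail binds ezrin and moesin. The first set had 29.6, 13.8 and 24.8 FPKM in TGFbeta1 1 to 3, against 1.298, 1.75 and 1.39 FPKM in control 1 to 3. Every TGFbeta1 library was above every control library, and TGFbeta1 2 was the lowest of its group. The log2 change, here and below on the log2(FPKM + 1) scale that understates the change of low genes, was 3.20 with an SE of 0.28, the 11th highest of 10454 genes. The second set gave 4.84, 2.33 and 2.49 FPKM in libraries labelled TGFbeta1, against 3.36, 9.04 and 8.29 FPKM in controls. The groups overlapped because control 4 lay below TGFbeta1 4, and the log2 change was -0.86 with an SE of 0.39. In the first set PDPN-201, PDPN-202, PDPN-210, PDPN-211 and PDPN-212 were each apart and higher with TGFbeta1, while PDPN-203 and PDPN-209 overlapped. PDPN-202 averaged 8.69 ± 3.01 FPKM with TGFbeta1 and 0.335 ± 0.110 FPKM in controls (SD, n = 3), and PDPN-201 averaged 6.21 ± 2.65 and 0.388 ± 0.078 FPKM. These 2 models code for the same protein but for 6 bases, shown here because they had the highest means of the PDPN models in first-set TGFbeta1 libraries. The run is part of the spliced PDPN-201 transcript with the 6 bases in capitals, which PDPN-202 lacks (GRCh38 chr1:13614406-13614411, plus strand).
PDPN: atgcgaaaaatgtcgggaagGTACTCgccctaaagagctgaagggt

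Assignment of reads between models that differ by 6 coding bases is uncertain, so sums per gene are the firmer values. PDPN-210, PDPN-211 and PDPN-212 were listed in the first table only. With transcripts listed in both tables alone, the first-set log2 change was 3.17.

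Of 7 tested genes for podoplanin partners, the hyaluronan receptor gene CD44 rose in the first set and the membrane-cytoskeleton linker gene EZR fell. CD44 averaged 181 ± 7.58 FPKM with TGFbeta1 and 110.1 ± 1.05 FPKM in controls (SD, n = 3), a log2 change of 0.71 (adjusted p = 0.00089). EZR averaged 53.6 ± 4.0 and 75.0 ± 8.53 FPKM, a log2 change of -0.47 (adjusted p = 0.0292), and its call was lost without TGFbeta1 1, 2 or 3 or control 1, with adjusted p of 0.0521 to 0.0883. The EZR relative MSN, at 133 and 65.7 FPKM, was apart but did not pass (log2 change 0.91, adjusted p = 0.106). None of the 7 passed in the second set.

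The RefSeq promoter window (GRCh38.p14, 250 bases before to 50 bases after an annotated start) lying 5 bases from the start of PDPN-202 held 1 GGGCGG box, a motif bound by SP1, on either strand, and no match to 4 further motifs. Those were CAGACA, a SMAD box, TGANTCA, an AP-1 site, GGAATG, a TEAD site, and CACCTG, an E-box. Over 35116 such human windows the shares with a match on either strand were 45.0% for GGGCGG, 16.9% for CAGACA, 7.71% for TGANTCA, 14.03% for GGAATG and 20.6% for CACCTG. A PDPN window further into the gene, 1698 bases from that start, held 2 CAGACA boxes. Windows were found for 5 of the 7 genes. The window nearest the PDPN start is shown because PDPN had the largest first-set change, with the motif in capitals (chr1:13583507-13583806, plus strand).
PDPN: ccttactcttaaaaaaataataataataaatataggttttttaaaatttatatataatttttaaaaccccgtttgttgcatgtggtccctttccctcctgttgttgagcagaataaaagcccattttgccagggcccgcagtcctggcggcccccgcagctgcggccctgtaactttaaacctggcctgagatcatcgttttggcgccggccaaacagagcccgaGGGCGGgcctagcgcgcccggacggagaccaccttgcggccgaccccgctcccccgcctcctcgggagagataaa

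FAP (ENSG00000078098, hg19 chr2:163027200-163100045, minus strand) codes for fibroblast activation protein, a membrane serine protease of activated fibroblasts that cleaves after proline. First-set levels were 41.1, 40.8 and 41.2 FPKM in TGFbeta1 libraries, against 6.58, 6.58 and 7.04 FPKM in controls. The 3 TGFbeta1 libraries differed by under 1 FPKM, and the groups were far apart. The log2 change was 2.44 with an SE of 0.063, the 31st highest of all genes tested. Second-set values were 4.43, 5.53 and 5.41 FPKM in libraries labelled TGFbeta1, against 7.18, 7.71 and 7.53 FPKM in controls. The order was reversed and again without overlap, but the difference, -0.47 with an SE of 0.097, did not pass the test. The control levels of the 2 sets were close, while the TGFbeta1 levels were not, although the tables were made separately and levels across them are set side by side only.

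The FAP signal was carried by different transcript models in the 2 tables. Of the first-set sum FAP-201 held 98.0% ± 2.34 with TGFbeta1 and 91.8% ± 8.84 in controls (SD, n = 3). Of the second-set sum FAP-201 held 49.8% ± 29.6 in libraries labelled TGFbeta1 and 33.2% ± 17.7 in controls, and FAP-214 held the rest. The shares varied from library to library, from 15.7% to 84.0% for FAP-201. The 2 models differ in their coding part by 6 bases in one and 3 bases in the other. FAP-203, listed in the first table only, lacks a 75-base in-frame exon and had 0 to 1.58 FPKM in any library. That exon is shown because it alone separates the coding part of FAP-203 from that of FAP-201, in capitals within the spliced FAP-201 transcript (GRCh38 chr2:162224466-162224540, minus strand).
FAP: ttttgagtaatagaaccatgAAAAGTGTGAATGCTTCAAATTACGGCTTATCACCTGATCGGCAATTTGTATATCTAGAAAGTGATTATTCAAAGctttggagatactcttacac

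Among 5 tested relatives of FAP, none rose and 1 fell in the first set. DPP7, a lysosomal dipeptidyl peptidase, averaged 31.3 ± 3.78 FPKM with TGFbeta1 and 47.5 ± 2.12 FPKM in controls (SD, n = 3), a log2 change of -0.59 (adjusted p = 0.0132, and 0.0501 without control 1). None of the 5 passed in the second set, where DPP7 was at 20.3 ± 4.31 and 24.9 ± 4.2 FPKM.

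NT5E (ENSG00000135318, hg19 chr6:86159302-86205509, plus strand) codes for CD73, a lipid-anchored enzyme that turns extracellular AMP into adenosine and is one of the markers by which mesenchymal stromal cells are defined. It was the most abundant of the 7 genes in every group. First-set levels were 98.5, 106 and 93.2 FPKM in TGFbeta1 libraries, against 34.7, 33.9 and 41.5 FPKM in controls. Every TGFbeta1 library was more than 2 times as high as any control library, and the log2 change was 1.42 with an SE of 0.10. Second-set levels were 147, 154 and 123 FPKM in libraries labelled TGFbeta1, against 144, 151 and 123 FPKM in controls. Here the groups overlapped almost fully, with a log2 change of 0.02 and an SE of 0.12, and both groups lay above the first-set TGFbeta1 libraries.

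The full-length model NT5E-201 held 81.8% ± 5.21 of the sum with TGFbeta1 and 72.9% ± 6.30 in controls of the first set, and 92.5% ± 0.21 and 93.1% ± 1.25 in the second (SD, n = 3). NT5E-203, which lacks 1 in-frame exon of 150 bases, held 9.09% ± 2.53 with TGFbeta1 and 13.4% ± 5.12 in controls of the first set. Its second-set share was 1.45% ± 0.10 in libraries labelled TGFbeta1 and 1.40% ± 0.098 in controls. The exon is shown because it is what separates the long from the short enzyme, in capitals within the spliced NT5E-201 transcript (GRCh38 chr6:85490508-85490657, plus strand).
NT5E: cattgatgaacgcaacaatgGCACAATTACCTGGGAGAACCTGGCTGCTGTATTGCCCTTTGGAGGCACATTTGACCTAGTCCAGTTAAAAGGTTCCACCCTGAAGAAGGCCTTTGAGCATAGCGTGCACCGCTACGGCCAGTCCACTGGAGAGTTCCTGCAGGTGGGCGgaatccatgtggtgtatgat

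Of 5 tested genes of the extracellular adenosine pathway beside NT5E, 1 rose and 3 fell in the first set. The largest fall was that of ALPP, a lipid-anchored alkaline phosphatase, which had 0.764, 0.494 and 0.343 FPKM in TGFbeta1 libraries, against 6.06, 5.96 and 2.58 FPKM in controls (log2 change -1.88, adjusted p = 0.00989). Reads of ALPP can be shared with its near-identical paralogs, so its level is uncertain, and it reached the minimum only through the controls, which already favoured a fall. The nucleoside transporter genes moved apart, SLC29A2 falling by 0.96 (adjusted p = 0.0149, and 0.0543 without control 1) and SLC29A1 rising by 0.52 (adjusted p = 0.0274). The SLC29A1 call was lost without TGFbeta1 1 or 3 or any 1 control, with adjusted p of 0.0514 to 0.0849. ADK, the adenosine kinase, also fell, by 0.31 (adjusted p = 0.0171), a call lost without TGFbeta1 1 or 2 or control 1, at 0.0594 to 0.0642. None of 7 passed in the second set.

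DCN (ENSG00000011465, minus strand, hg19 chr12:91539036-91573359 over the transcripts of the first table) codes for decorin, a small leucine-rich proteoglycan of connective tissue that binds collagen fibrils and can bind TGFbeta. Levels in the first set were 1.72, 3.67 and 2.94 FPKM in TGFbeta1 libraries, against 0.608, 0.685 and 0.489 FPKM in controls. The groups were apart, but DCN reached the minimum of 1 FPKM through the TGFbeta1 libraries only, so that passing the minimum already favoured a rise. The log2 change was 1.21 with an SE of 0.21, and the call was lost without TGFbeta1 3, at a log2 change of 1.16. The second-set level of DCN was 12.4, 14.3 and 10.7 FPKM in libraries labelled TGFbeta1, against 30.8, 27.8 and 27.1 FPKM in controls. It was lower without overlap, by 1.14 with an SE of 0.11, and was the 22nd from the bottom of 10579 genes. That call was lost without TGFbeta1 4 or 6 or any 1 control, at log2 changes of -1.18 to -1.05, when each library was scaled to the same sum, and with transcripts of both tables only. The DCN sum was also higher in every second-set library than in any first-set library, but the sums cover different models. DCN-202, the only model in both tables, overlapped between the sets in libraries labelled TGFbeta1. It had 1.86 to 2.23 FPKM in those of the second set and 1.66 to 3.57 FPKM in those of the first. In controls it was higher in the second set, at 7.24 to 15.3 FPKM against 0.489 to 0.685 FPKM.

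The DCN models differed between the tables. The first table listed DCN-202 and DCN-207, the second listed 10 models, and only DCN-202 was in both. DCN-202 averaged 2.73 ± 0.97 FPKM with TGFbeta1 and 0.594 ± 0.099 FPKM in controls of the first set (SD, n = 3). The second-set mean was 2.06 ± 0.19 FPKM in libraries labelled TGFbeta1 and 11.3 ± 4.04 FPKM in controls, and with DCN-202 alone the second-set log2 change was -1.96, without a call. DCN-208, whose model is a partial one, held 41.1% ± 2.70 of the second-set sum in libraries labelled TGFbeta1 and 21.1% ± 18.8 in controls. DCN-201, DCN-202 and DCN-220 share all of their 1077 coding bases, so that reads within the coding part cannot tell them apart.

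Of 14 further small leucine-rich proteoglycan genes, 3 had rows in the first set and 2 were tested. PODNL1, podocan-like 1, rose, with 1.93, 1.88 and 1.57 FPKM in TGFbeta1 libraries, against 0.278, 0.448 and 0.10 FPKM in controls (log2 change 1.14, adjusted p = 0.00397), and like DCN it reached the minimum only through the TGFbeta1 libraries. BGN, biglycan, averaged 0.448 ± 0.044 FPKM with TGFbeta1 and 0.461 ± 0.117 FPKM in controls, too low for the test. Second-set BGN was at 1.21 ± 0.19 FPKM in libraries labelled TGFbeta1 and 2.46 ± 0.16 FPKM in controls, apart but not past the test (log2 change -0.65, adjusted p = 0.119).

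THY1 codes for Thy-1, a lipid-anchored glycoprotein of fibroblasts and neurons that binds integrins on neighbouring cells. Of 4 tested genes for its partners, the integrin chain genes ITGAV and ITGB5 rose in the first set. ITGAV averaged 49.1 ± 13.9 FPKM with TGFbeta1 and 14.2 ± 1.94 FPKM in controls (SD, n = 3), a log2 change of 1.69 (adjusted p = 0.00717). ITGB5 averaged 52.9 ± 1.97 and 30.1 ± 3.59 FPKM, a log2 change of 0.80 (adjusted p = 0.00423). Second-set ITGAV was at 11.3 ± 1.02 FPKM in libraries labelled TGFbeta1 and 13.6 ± 0.55 FPKM in controls and did not pass (log2 change -0.25), nor did any other of the 4. The difference between the sets passed the interaction test for both, as it did for 13.5% of 9990 genes tested in both sets (-1.94 for ITGAV, adjusted p = 0.000999, and -1.11 for ITGB5, adjusted p = 0.000244).

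AXL (ENSG00000167601, hg19 chr19:41725108-41767671, plus strand) codes for a receptor tyrosine kinase of the TAM family, activated by the vitamin K-dependent ligand GAS6. It was the 1 gene of the 7 with about the same small difference in both sets. Levels in the first set were 10.2, 10.7 and 9.60 FPKM in TGFbeta1 libraries, against 11.96, 11.8 and 11.4 FPKM in controls. The groups did not overlap, yet the difference, -0.19 with an SE of 0.072, did not pass the test. Levels in the second set were 17.4, 19.4 and 16.6 FPKM in libraries labelled TGFbeta1, against 20.5, 23.2 and 18.4 FPKM in controls. There the groups overlapped, with a log2 change of -0.20 and an SE of 0.10. AXL is widely used as a marker of mesenchymal-like carcinoma cells, and in these libraries no increase was detected.

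The makeup of AXL transcripts differed more between the tables than between treatments. Of the first-set sum AXL-201 held 37.4% ± 3.18 with TGFbeta1 and 40.4% ± 4.94 in controls (SD, n = 3), and nearly all of the rest was AXL-202. Of the second-set sum AXL-201 held 88.2% ± 2.30 in libraries labelled TGFbeta1 and 89.7% ± 0.94 in controls. The 6 second-set libraries ran from 85.6% to 90.7% and the 6 first-set libraries from 34.2% to 45.5%, so that the sets did not overlap while the treatments within each did. The 2 models differ in coding sequence by 1 exon of 27 bases, which keeps the reading frame. It is printed in capitals within the spliced AXL-201 transcript, since this exon is all that separates the coding parts (GRCh38 chr19:41239694-41239720, plus strand).
AXL: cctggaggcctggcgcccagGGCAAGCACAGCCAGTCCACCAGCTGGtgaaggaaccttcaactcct

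The 2 models also differ in length outside the coding part, 4737 and 3206 bases in all, and read assignment can turn on those ends as much as on the exon. What else differed between the sets was not tested.

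Of 4 tested TAM receptor and ligand genes besides AXL, the ligand gene PROS1 (protein S) rose in the first set. It averaged 2.13 ± 0.205 FPKM with TGFbeta1 and 1.33 ± 0.16 FPKM in controls (SD, n = 3), a log2 change of 0.43 (adjusted p = 0.0363), and the call was lost without any 1 of the 6 libraries, with adjusted p of 0.0591 to 0.104. The other ligand gene, GAS6, averaged 63.1 ± 2.10 and 46.6 ± 8.43 FPKM and did not pass (log2 change 0.44, adjusted p = 0.068). The receptor gene TYRO3 averaged 2.43 ± 0.16 and 2.31 ± 0.19 FPKM, and MERTK was under 0.2 FPKM. Second-set GAS6 was at 80.6 ± 6.04 FPKM in libraries labelled TGFbeta1 and 96.4 ± 1.35 FPKM in controls, apart but not past the test.

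**Figure D3:**
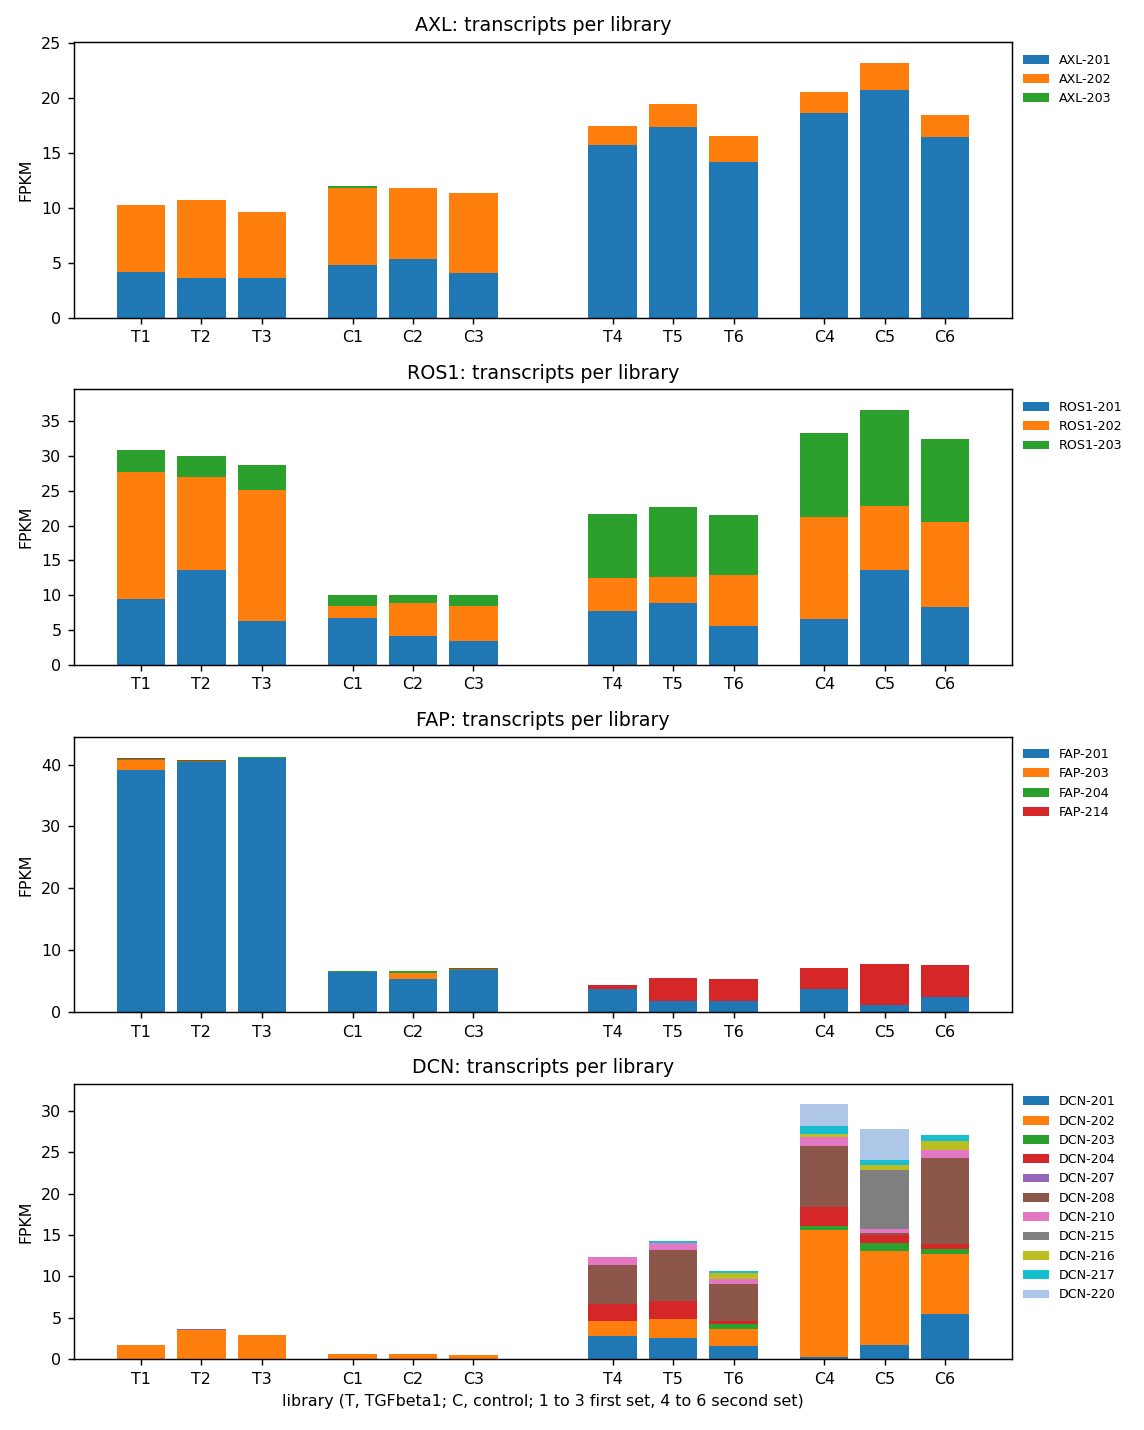
FPKM of each listed transcript (stacked, y axis linear from 0) of AXL, ROS1, FAP and DCN in each library, T for TGFbeta1 and C for control, replicates 1 to 3 from the first set and 4 to 6 from the second. AXL-201 makes up 34.2% to 45.5% of the AXL bars of the first set and 85.6% to 90.7% of those of the second.

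ROS1 (ENSG00000047936, hg19 chr6:117609463-117747018, minus strand) codes for a large receptor tyrosine kinase of the insulin receptor family. The first set held 30.9, 29.9 and 28.7 FPKM in TGFbeta1 libraries, against 10.02, 9.98 and 10.08 FPKM in controls. The spread within each group was small beside the gap, and the log2 change was 1.48 with an SE of 0.063. The second set held 21.6, 22.6 and 21.6 FPKM in libraries labelled TGFbeta1, against 33.3, 36.6 and 32.3 FPKM in controls. It was lower without overlap, by 0.61 with an SE of 0.066. ROS1 was thus called in both sets in opposite directions, which is a description only, since it was chosen on this contrast. The second-set call was lost without any 1 of the 6 libraries, at log2 changes of -0.65 to -0.56, with every library scaled to the same sum, and in limma without trend.

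Most of both changes lay in the model ROS1-202. It had 18.3, 13.3 and 18.8 FPKM in first-set TGFbeta1 libraries, against 1.70, 4.71 and 5.13 FPKM in controls. Its second-set values were 4.76, 3.61 and 7.23 FPKM in libraries labelled TGFbeta1, against 14.6, 9.12 and 12.3 FPKM in controls. The groups did not overlap in either set. ROS1-201 overlapped in both sets, with 9.81 ± 3.69 FPKM with TGFbeta1 and 4.73 ± 1.73 FPKM in controls of the first set, and 7.44 ± 1.68 and 9.52 ± 3.69 FPKM in the second (SD, n = 3). The coding parts of these models, 7041 bases in ROS1-202 and 7023 in ROS1-201, differ by 3 short segments, so reads that tell them apart are few. The 2 longer segments are shown in capitals within their spliced transcripts, the first found in ROS1-202 only (GRCh38 chr6:117387993-117388034, minus strand) and the next in ROS1-201 only (chr6:117414519-117414545, minus strand).
ROS1, 42 bases: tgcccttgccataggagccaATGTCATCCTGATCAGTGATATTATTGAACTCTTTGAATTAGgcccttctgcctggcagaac
ROS1, 27 bases: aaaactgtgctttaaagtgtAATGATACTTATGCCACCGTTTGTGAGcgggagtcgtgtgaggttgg

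A short partial model of 681 bases, ROS1-203, held 10.8% ± 1.36 of the first-set sum with TGFbeta1 and 14.5% ± 2.79 in controls, and 42.3% ± 2.05 and 36.8% ± 0.77 in the second set (SD, n = 3). FPKM divides by length, so a model this short weighs heavily in the sum and the second-set level of ROS1 rests in large part on it. ROS1-203 itself was apart in both sets, higher in the first and lower in the second.

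Among 6 tested genes for relatives and neighbours of ROS1, IGF1R, the insulin-like growth factor receptor, rose in the first set. It averaged 9.21 ± 1.04 FPKM with TGFbeta1 and 4.32 ± 0.39 FPKM in controls (SD, n = 3), a log2 change of 0.94 (adjusted p = 0.0037). Second-set IGF1R was at 4.90 ± 0.30 FPKM in libraries labelled TGFbeta1 and 5.34 ± 0.39 FPKM in controls (log2 change -0.10). The genomic neighbours GOPC and DCBLD1 were apart and higher in the first set, at 31.3 and 25.2 FPKM and at 16.5 and 8.64 FPKM, without passing the test (adjusted p = 0.0559 and 0.0988).

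CSF1R (ENSG00000182578, hg19 chr5:149432854-149492935, minus strand) codes for the receptor of the macrophage growth factor CSF1 and for IL-34. First-set levels were 4.13, 3.37 and 3.61 FPKM in TGFbeta1 libraries, against 1.23, 1.28 and 1.498 FPKM in controls. It was low but every TGFbeta1 library was more than 2 times as high as any control library. The log2 change was 1.01 with an SE of 0.10. The partial model CSF1R-205 held 16.3% to 27.0% of these sums with TGFbeta1 and 21.6% to 40.4% in controls, and its FPKM overlapped. The longer model CSF1R-201 was apart and higher, at 2.92 ± 0.35 FPKM with TGFbeta1 and 0.884 ± 0.14 FPKM in controls (SD, n = 3). The second table listed CSF1R-201 only. Second-set levels were 0.556, 0.559 and 0.511 FPKM in libraries labelled TGFbeta1, against 0.657, 0.730 and 0.633 FPKM in controls. The groups were apart there too, lower by 0.12, but both were under the minimum of 1 FPKM and were not tested. The ligand gene CSF1 averaged 4.16 ± 1.76 FPKM with TGFbeta1 and 4.09 ± 0.44 FPKM in controls of the first set, and 21.7 ± 1.60 and 25.7 ± 1.2 FPKM in the second (SD, n = 3). It passed the test in neither set. Of 4 tested genes for its ligands and signal chain, the ubiquitin ligase gene CBL rose in the first set, by 0.46 (adjusted p = 0.0100).

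CSF1R is known to have a start near its coding part, used in macrophages, and an upstream start, used in placental trophoblast. Of the 2 CSF1R models in the tables, CSF1R-201 begins at the upstream start, and the other, CSF1R-205, is a partial model. The window 7 bases from the CSF1R-201 start held 1 CAGACA, 1 TGANTCA, 1 GGGCGG and 1 CACCTG, of which the CACCTG and TGANTCA matches overlap, and the window at the downstream start, 26818 bases away, held none of the 5 motifs. A match is a stretch of letters and says nothing of binding. The upstream window is shown because it is the start of the longer CSF1R model, with the matches in capitals (GRCh38.p14 chr5:150113316-150113615, minus strand).
CSF1R: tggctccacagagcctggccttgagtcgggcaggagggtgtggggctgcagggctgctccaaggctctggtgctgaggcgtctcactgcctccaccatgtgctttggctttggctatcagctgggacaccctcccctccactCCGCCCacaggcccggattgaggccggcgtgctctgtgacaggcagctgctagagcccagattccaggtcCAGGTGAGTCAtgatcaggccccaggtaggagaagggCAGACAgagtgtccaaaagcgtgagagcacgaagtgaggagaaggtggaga

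The nearest windows of PDPN, AXL, NT5E and CSF1R each held a GGGCGG box, a motif found in 45.0% of all windows, and that of ROS1 did not. The windows of the 5 genes differed in GC content and in the other motifs. GC content was 75.0% in the NT5E window, 66.0% in AXL, 62.3% in CSF1R, 52.0% in PDPN and 40.0% in ROS1, around a median of 58.7% over all windows. The NT5E window held 2 GGGCGG boxes and no other match, the AXL window 2 GGGCGG boxes and 1 CACCTG, and the ROS1 window none of the 5 motifs.

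By summed FPKM NT5E stood first in all 4 groups. These sums are not strictly comparable between genes, because short partial models weigh heavily in some. In second-set libraries partial models held 36.4% to 44.4% of the ROS1 sum and 5.35% to 51.2% of the DCN sum. The places of ROS1 and DCN there depend on such models. In first-set TGFbeta1 libraries the order was NT5E, FAP, ROS1, PDPN, AXL, CSF1R and DCN, where ROS1 overlapped PDPN and CSF1R overlapped DCN. In first-set controls it was NT5E, AXL, ROS1, FAP, PDPN, CSF1R and DCN, and PDPN overlapped CSF1R. In second-set libraries labelled TGFbeta1 it was NT5E, ROS1, AXL, DCN, FAP, PDPN and CSF1R, with FAP overlapping PDPN. In second-set controls DCN stood above AXL, at 28.6 ± 1.97 and 20.7 ± 2.38 FPKM (SD, n = 3), and FAP again overlapped PDPN. DCN was in the last place in the first set and in the third or the fourth in the second.

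The genes whose pattern was most like each marker gene were found by Pearson's r of log2(FPKM + 1), centred within each set, over 12 libraries and 9990 genes tested in both sets. These r values are a description and share the contrast, so a gene with a like change in both sets ranks high. For FAP they were the collagen genes COL4A2 and COL5A1 and the tyrosylprotein sulfotransferase gene TPST1, each with an r of 0.997 or 0.998. For PDPN they were SRPX (r = 0.99), IKBIP (0.96) and RASA3 (0.95). For NT5E they were ANKIB1, the laminin chain gene LAMA3 and HPCAL1, at 0.99 or above. For ROS1 they were WIPF1, CDK14 and the thrombin receptor gene F2R, at 0.98 to 0.99. For DCN they were GSTM4 (0.95), ZCCHC24 (0.94) and the collagen gene COL6A1 (0.93), and for AXL they were AASDH (0.93), DYNC2H1 (0.91) and KIAA0368 (0.90).

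Other surface proteins of mesenchymal and stromal cells were taken as a list of 28 genes, of which 17 were tested in each set. In the first set 10 rose and 1 fell, with a median log2 change of 0.66. MRC2, a collagen uptake receptor, had 7.32, 7.59 and 5.95 FPKM in TGFbeta1 libraries, against 1.25, 0.705 and 1.21 FPKM in controls (log2 change 1.96, adjusted p = 0.000932). ITGA5, the fibronectin receptor chain, had 87.9, 128 and 122 FPKM, against 27.8, 27.8 and 38.4 FPKM in controls (log2 change 1.81, adjusted p = 0.00285). MCAM, an adhesion protein of pericytes and stromal cells, averaged 42.7 ± 7.10 and 17.3 ± 4.62 FPKM (log2 change 1.28, adjusted p = 0.0131). ENG, the TGFbeta co-receptor endoglin, was apart and higher at 11.2 and 6.49 FPKM without passing (adjusted p = 0.0637), and the gene that fell was the adhesion protein gene ALCAM, by 0.35 (adjusted p = 0.0348), a call lost without TGFbeta1 1, 2 or 3 or control 1 or 2, at 0.0823 to 0.104, and under all 3 other scalings.

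None of the 17 rose in the second set and 1 fell, with a median of -0.20. That gene was MME, the surface peptidase CD10 of stromal and myoepithelial cells, which had 40.6, 32.4 and 38.6 FPKM in libraries labelled TGFbeta1, against 74.4, 74.9 and 74.8 FPKM in controls (log2 change -0.99, adjusted p = 0.0295). Its call was lost without TGFbeta1 4 or 6 or any 1 control, with adjusted p of 0.0621 to 0.129. In the first set MME overlapped, at 12.1 ± 1.04 FPKM with TGFbeta1 and 12.8 ± 2.94 FPKM in controls (SD, n = 3). MRC2, at 2.12 ± 0.061 and 3.57 ± 0.51 FPKM, was apart and lower in the second set without passing (log2 change -0.55, adjusted p = 0.153).

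**Figure D4:**
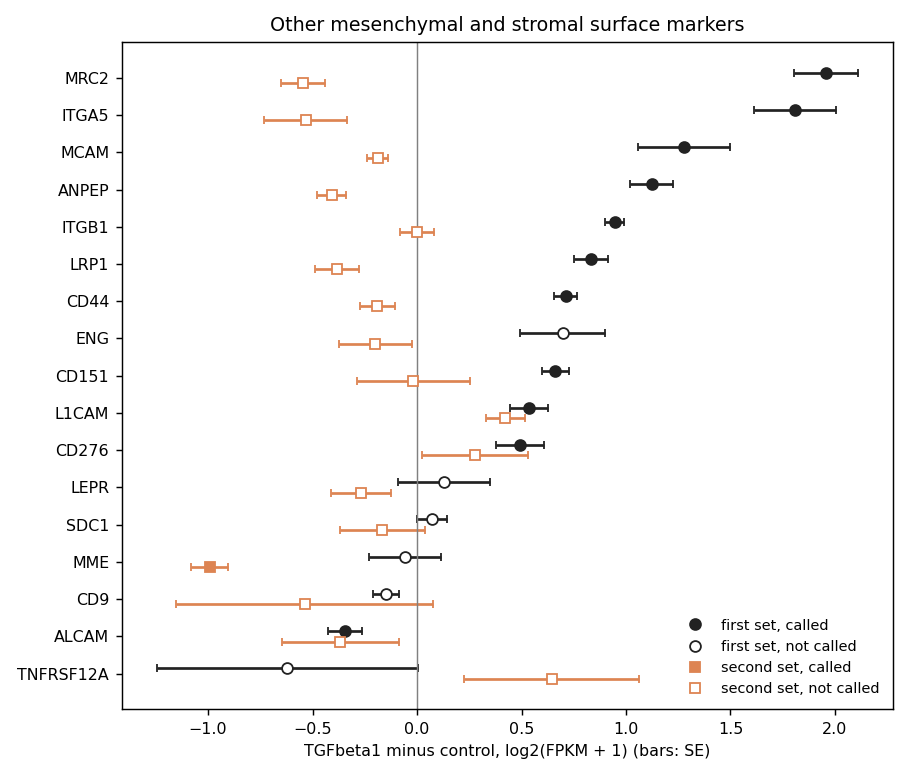
Difference between TGFbeta1 and control on the log2(FPKM + 1) scale (x axis) for the 17 other surface marker genes tested in both sets, first set as circles and second set as squares, filled where the adjusted p was under 0.05, with SE as bars. MRC2 and ITGA5 lie at 1.96 and 1.81 in the first set and at -0.55 and -0.53 in the second.

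Markers of other cell types were followed because these genes also mark fibroblasts, macrophages and vessels. In bulk RNA, fewer cells of a type and less RNA per cell cannot be told apart. Of 10 fibroblast markers 2 had rows in the first set, summing to 14.9 to 16.1 FPKM with TGFbeta1 and 1.61 to 4.17 FPKM in controls. COL1A1 rose, with 12.5, 13.2 and 10.8 FPKM in TGFbeta1 libraries, against 1.24, 0.994 and 1.07 FPKM in controls (log2 change 2.65, adjusted p = 0.000112), and TWIST2 did not pass. Second-set rows were found for 3 of the 10, summing to 5.68 to 6.62 FPKM in libraries labelled TGFbeta1 and 6.11 to 7.05 FPKM in controls. COL1A1 was at 0.713 ± 0.085 and 0.439 ± 0.021 FPKM there, apart and higher in libraries labelled TGFbeta1, but under the minimum and not tested.

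Of 12 leukocyte and macrophage markers 3 had rows in the first set, summing to 15.1 to 19.1 FPKM with TGFbeta1 and 25.2 to 26.1 FPKM in controls. CD14, a lipopolysaccharide co-receptor, fell, at 0.581 ± 0.12 FPKM with TGFbeta1 and 2.84 ± 0.29 FPKM in controls (SD, n = 3; log2 change -1.28, adjusted p = 0.00123), and it reached the minimum only through the controls. The lysosomal membrane protein gene CD68 fell by 0.48 (adjusted p = 0.0306). That call was lost when any of the libraries except TGFbeta1 2 was left out, with adjusted p of 0.0705 to 0.092. LYZ was listed at 0 in all 3 TGFbeta1 libraries, but its mean was under the minimum of 1 FPKM, so no fall is read from it. CSF1R was higher in the same TGFbeta1 libraries, and any link between its level and those of CD14 and CD68 was not tested. Second-set rows were found for 2 of the 12, CD14 and CD68, summing to 15.1 to 23.6 FPKM in libraries labelled TGFbeta1 and 19.5 to 19.7 FPKM in controls. Neither passed the test there. CD14 was apart and higher, the reverse of the first set, with 8.30, 8.95 and 8.81 FPKM in libraries labelled TGFbeta1, against 4.79, 4.66 and 6.59 FPKM in controls. CD68 overlapped. Of 9 endothelial and lymphatic markers 3 had first-set rows and 1 had a second-set row, summing to under 1 FPKM in every library.

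Of 7 pericyte and smooth muscle markers 2, NOTCH3 and ACTA2, were tested in each set. NOTCH3 fell in the first, at 1.41 ± 0.076 FPKM with TGFbeta1 and 8.50 ± 0.36 FPKM in controls (SD, n = 3), a log2 change of -1.98 (adjusted p = 0.000112). ACTA2 changed upwards there without passing, and the median log2 change of the 2 was -0.78. The first-set sum of the list was 20.5 to 22.0 FPKM with TGFbeta1 and 20.5 to 25.4 FPKM in controls. Neither gene passed in the second set, where the median was -0.33. All 10 mammary epithelial markers were tested, and their sum, 2419 to 2737 FPKM with TGFbeta1 and 2666 to 3386 FPKM in controls of the first set, was above that of all the other lists of cell type markers. Of the 10, LAMB3 (log2 change 2.05) and ITGA6 (1.07) rose while EPCAM (-1.03), KRT18 (-0.75) and KRT5 (-0.64) fell in the first set, and none passed in the second. The KRT18 call was lost without TGFbeta1 1 or 2 or control 2 or 3, with adjusted p of 0.0598 to 0.0808. The second-set sum of the list was 1914 to 2062 FPKM in libraries labelled TGFbeta1 and 1789 to 2029 FPKM in controls. The part of these levels in the values of the 7 marker genes was not tested.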

How the data were processed

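RNA of 12 MCF-12A libraries was sequenced on an Illumina platform. Per the submitters' processing notes the tools were HISAT2 2.0.4, StringTie 1.2.3, cutadapt and FastQC, with the build hg19. The sources used here name neither settings nor an annotation release. The authors deposited FPKM values per transcript in 2 tables. The second table's headers name FPKM for group means, while the unit of the first was inferred from its values. The authors also deposited log2 group means and fold changes, p-values and q-values, which were not used here. The tables list 44112 and 29204 transcripts of 13410 and 11504 genes, and every listed transcript reaches a mean of 0.025 FPKM in the first and 0.250 FPKM in the second, so listing differs between them. Without counts, depth and its precision are unknown.

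FPKM were summed per gene, after 163 symbols were brought to one spelling, and log2(FPKM + 1) was tested within each set by limma 3.58.1 with trend (R 4.3.3), over genes with a mean of at least 1 FPKM, with Benjamini-Hochberg adjustment over all of them and a threshold of 0.05 (two-sided). The difference between sets was an interaction term over 9990 genes. The scripts were tested on simulated data. Transcripts were matched by identifier and version to GENCODE (GRCh38), 35 of 35, of which 18 were in both tables. Segments and partial models were read from it, and promoter windows come from RefSeq (GRCh38.p14). Gene coordinates are those of the files (hg19). A value is given as mean ± SD of 3 libraries. A pair of groups is called apart where every library of one lies beyond every library of the other.

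The genes and the 15 lists were chosen with earlier results of these data known, and counts for them support nothing on their own. From each list up to 3 genes per set, past the threshold and with the largest change, were named, plus defining markers at 0. ENG, ALCAM, ADK, MSN, BGN, GAS6, TYRO3, MERTK, CSF1, GOPC, DCBLD1, TWIST2, KRT18, KRT5, ITGB1, LRP1, ANPEP, ACTA2, SMAD7, TGFBI and SKIL were added after their values were seen. Alternatives were a pseudocount of 0.1, no minimum or one of 5 FPKM, 3 other scalings, no trend, transcripts of both tables only, a replicate block, and leaving out each library. Replicate numbers were not taken to pair the samples in either set, by the check described below, which hints at pairing in the second set and cannot exclude it. A result that needs 1 further gene of the response list is not reported here.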

Additional observations from a re-analysis of the deposited data

Results flagged for a closer look

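Of the marker genes 4 moved in opposite directions in the 2 sets, with every TGFbeta1 library beyond every control library in each set. Of all genes tested 18.2% were apart upwards in the first set and 9.62% downwards in the second. The second share does not cover CSF1R. The share of genes with both was not computed, so nothing is read from this count. The difference between the sets was not tested for them, because they were chosen on these values. The log2 change of FAP was -0.47 in the second set and 2.44 in the first. That of DCN was -1.14 in the second set and 1.21 in the first. That of CSF1R was -0.12 in the second set, under the minimum level, and 1.01 in the first. That of ROS1 was -0.61 in the second set and 1.48 in the first.

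For 32 of 72 listed genes tested in both sets the change differed between the sets by the interaction term in limma (adjusted p under 0.05, as for 13.5% of 9990 genes), given here as the second-set log2 change minus that of the first. Among surface marker, partner, receptor and neighbour genes the difference was -2.50 for MRC2, -2.34 for ITGA5, -1.94 for ITGAV, -1.53 for ANPEP, -1.47 for MCAM, -1.22 for LRP1, -1.20 for DCBLD1, -1.11 for ITGB5, -1.04 for IGF1R, -0.94 for MME, -0.94 for PROS1, -0.94 for ITGB1, -0.90 for CD44, -0.70 for GAS6, -0.57 for SLC29A1, -0.49 for GOPC, 0.52 for EZR and 1.87 for ALPP. Among markers of other cell types it was -1.84 for LAMB3, -0.85 for ITGA6, -0.80 for ACTA2, 0.70 for KRT5, 1.119 for KRT18, 1.25 for EPCAM, 1.70 for NOTCH3 and 1.90 for CD14. Among the response genes it was -3.70 for FN1, -3.68 for ITGB6, -3.65 for TGFBI, -3.51 for PMEPA1, -1.95 for SKIL and -1.42 for SMAD7.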

How the results depend on the processing

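No called value of a marker gene changed sign under any alternative run. The log2 change ran from 2.98 to 3.79 for PDPN, 2.43 to 2.59 for FAP, 1.04 to 2.0 for DCN, 1.36 to 1.52 for NT5E, 0.94 to 1.41 for CSF1R and 1.46 to 1.57 for ROS1 in the first set, the upper ends of PDPN, FAP, DCN and CSF1R coming with a pseudocount of 0.1. AXL stayed between -0.22 and -0.11 in the first set, without a call in any alternative. A minimum of 5 FPKM left 4 of the genes called in the first set, since DCN and CSF1R no longer entered.

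The count of genes called in the first set, 2186, ran from 1354 to 2030 when 1 library was left out. In the second set, 34 became 17 with libraries rescaled to an equal sum and 20 without trend, and 0 to 23 when 1 library was left out (0 without control 4). The 2 marker genes called there became 0 with an equal sum, 1 without trend, 1 with transcripts of both tables only, and 0 to 1 when 1 library was left out, where the listed genes called, 1, became 0 to 1.

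With the replicate number as a block, 1211 genes were called in the first set (552 higher and 659 lower) and 0 in the second, with 0 marker genes and 0 listed genes in the second. Without the block 1182 genes of the second set had an unadjusted p under 0.05. Deviations of same-numbered libraries correlated at 0.007 to 0.017 in the first set and 0.017 to 0.046 in the second, so the numbers were not taken to pair them. In the second set each library correlated best with its own number, a hint from the data only. The block cost the first-set calls of ADK, ALCAM, CBL, CD68, EZR, MCAM, PROS1, SLC29A1 and SLC29A2, with adjusted p of 0.0556 to 0.0922. The first-set call of CD68 was also lost when each library was scaled to the same sum (adjusted p = 0.058) and that of PROS1 with transcripts of both tables only (adjusted p = 0.0543).

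Without counts, differences among genes under 1 FPKM, as for CSF1R in the second set, could not be weighed against counting error.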
